A study of Mus musculus with 6 samples.

Results

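Cd74, H2-Aa, H2-Ab1, H2-Eb1, H2-DMa, H2-DMb1, Ciita and Cd274 were followed in lymphatic endothelial cells of the mouse meninges, the membranes around the brain. These 8 genes of MHC class II antigen presentation and of the checkpoint ligand PD-L1 were taken by name from a table of 22964 genes, and all 8 had enough counts to be tested among 15394 genes. The old group was 3 samples from mice aged 20 to 24 months, and the young group was 3 samples from mice aged 2 to 3 months. All were wild type males of the strain C57BL/6J, untreated, bought from a breeder or obtained from a national ageing colony and kept in 1 vivarium. The sort kept cells that carried CD31 and podoplanin and lacked the leukocyte protein CD45, and their RNA was amplified linearly before sequencing. Nothing states whether a sample was 1 animal or a pool, so the spread behind the p-values may be partly technical.

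Class II molecules present peptides from the endosomes of a cell to CD4+ T cells. An alpha and a beta chain assemble on the invariant chain, which fills the peptide groove until proteases cut it down and the DM heterodimer swaps the last fragment for a peptide. Dendritic cells and B cells make class II constantly through the transactivator Ciita, while endothelial cells mostly need interferon-gamma to turn Ciita on. Lymphatic endothelial cells of lymph nodes are known for low class II levels, for class II protein taken over from dendritic cells, and for PD-L1, which restrains T cells that they engage. Ciita binds no DNA itself and acts on promoters that carry an X box, bound by the RFX complex, and a Y box, bound by NF-Y.

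The class II genes in hand lie close together in the mouse H2 region of chromosome 17, in GRCm38 coordinates. H2-DMa runs from 34119541 to 34139101 and H2-DMb1 from 34153072 to 34160230, both on the plus strand. H2-Ab1 runs from 34257689 to 34269419 on the plus strand, H2-Aa from 34282744 to 34287823 on the minus strand and H2-Eb1 from 34305867 to 34316674 on the plus strand. Ciita lies on chromosome 16, from 10480059 to 10528418, and Cd274 on chromosome 19, from 29367455 to 29388095, both on the plus strand. Cd74 is on another chromosome.

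The RefSeq promoter table for GRCm38.p6 held 5 of the 8 genes, and the stretches below are shown because they carry, or lack, the X and Y box letters through which Ciita works. Capitals mark the X-box word CTNGNAAC and the Y-box word GATTGG where they form a pair on the same strand. Both words were written after the promoters had been read. The H2-Eb1 stretch holds another Y-box word on the opposite strand, left in lower case. The first 3 lines give the 120 bases before the annotated start, at chr17:34287824-34287943 (minus strand) for H2-Aa, chr17:34305747-34305866 (plus strand) for H2-Eb1 and chr19:29367318-29367437 (plus strand) for Cd274. The last line gives 30 bases from the X-box word of H2-DMb1, at chr17:34153094-34153123 (plus strand). That stretch lies before the RefSeq start of H2-DMb1 but inside the gene as placed above, from 34153072, because the annotations differ in the start.
H2-Aa: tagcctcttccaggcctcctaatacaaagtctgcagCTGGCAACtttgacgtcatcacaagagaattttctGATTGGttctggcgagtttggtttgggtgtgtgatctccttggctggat
H2-Eb1: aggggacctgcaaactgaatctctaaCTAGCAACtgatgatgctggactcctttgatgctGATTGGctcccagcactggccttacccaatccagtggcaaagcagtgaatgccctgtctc
Cd274: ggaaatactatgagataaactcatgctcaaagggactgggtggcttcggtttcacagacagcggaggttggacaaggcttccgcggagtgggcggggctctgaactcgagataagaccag
H2-DMb1: CTAGTAACtgatgatgctaggctgattcac

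The Y-box word began 35 bases after the X-box word in H2-Aa, 34 bases after it in H2-Eb1 and 35 bases after it in H2-DMb1. On either strand of the 250 bases before a start, 10.9% of 32851 windows held the X-box word and 14.6% held the Y-box word. The X-box word followed by the Y-box word on the same strand, 25 to 45 bases later from start to start, was found in 28 windows, or 0.0852%. H2-Ob, a class II region gene, held the pair as well. Most of the 28 windows belonged to genes other than class II genes, among them Casp8 and Stat2. The words were written after the promoters had been read, so the share is no test of them. Neither of the 2 windows of H2-DMa held it, nor did the window of Cd274. A word match is a description of the letters only.

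Depth ran from 14285794 to 21043945 estimated counts per sample, and no 2 of the 15 pairs of libraries agreed within sampling noise, with a chi-square per degree of freedom of at least 104. The defining lymphatic markers were present in every library: Prox1 had 996, 932 and 1410 CPM (a count scaled to the effective library size) in the old samples and 904, 945 and 877 CPM in the young samples. Lyve1 had 1593, 1417 and 1440 CPM in the old samples and 1338, 1016 and 1093 CPM in the young samples. Ptprc, which encodes CD45, was lowest in young sample 1. It had 30.98, 30.7 and 62.9 CPM in the old samples and 0.993, 57.4 and 72.7 CPM in the young samples. Other leukocyte transcripts, given below, did not all have their lowest value in that library.

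Class II transcripts were present in every library. The invariant chain and the 5 chain genes together took 0.0354% to 0.106% of all counts, or 5569 to 19839 counts per library. Their summed level was 903, 990 and 898 CPM in the old samples and 346, 1008 and 871 CPM in the young samples. The 3 old samples lay within the range of the young samples, and young sample 1 was the lowest of all. The mean sum was 930 ± 51.6 CPM in old and 741 ± 349 CPM in young cells (SD, n = 3 each), a ratio of 1.25. On the log2 scale the means differed by 0.47 against a pooled SD of 0.59, and by -0.012 without young sample 1.

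No class II or checkpoint gene passed a test between the ages. By edgeR's quasi-likelihood test with Benjamini-Hochberg adjustment, 0 of the 8 genes were called at a threshold of 0.05, where 0% of all 15394 genes were called. DESeq2 called 0 of the 8, against 0.882% of genes, and limma-voom 0 of the 8, against 0.0195% of genes. At an unadjusted p under 0.05, edgeR counted 0 of the 8, against 5.56% of genes, DESeq2 counted H2-Eb1, against 9.13% of genes, and limma-voom counted H2-Aa, against 6.35% of genes. The median log2 fold change of the 8 genes was 0.53, with 6 positive and 2 negative, while over all tested genes the median was 0.020 with 51.0% positive. That median ran from 0.23 without old sample 2 to 0.84 without young sample 2. H2-Eb1 was the only member with all old values above all young values, against 5.56% of tested genes, and none had all old values below, against 6.44%.

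**Figure D1:**
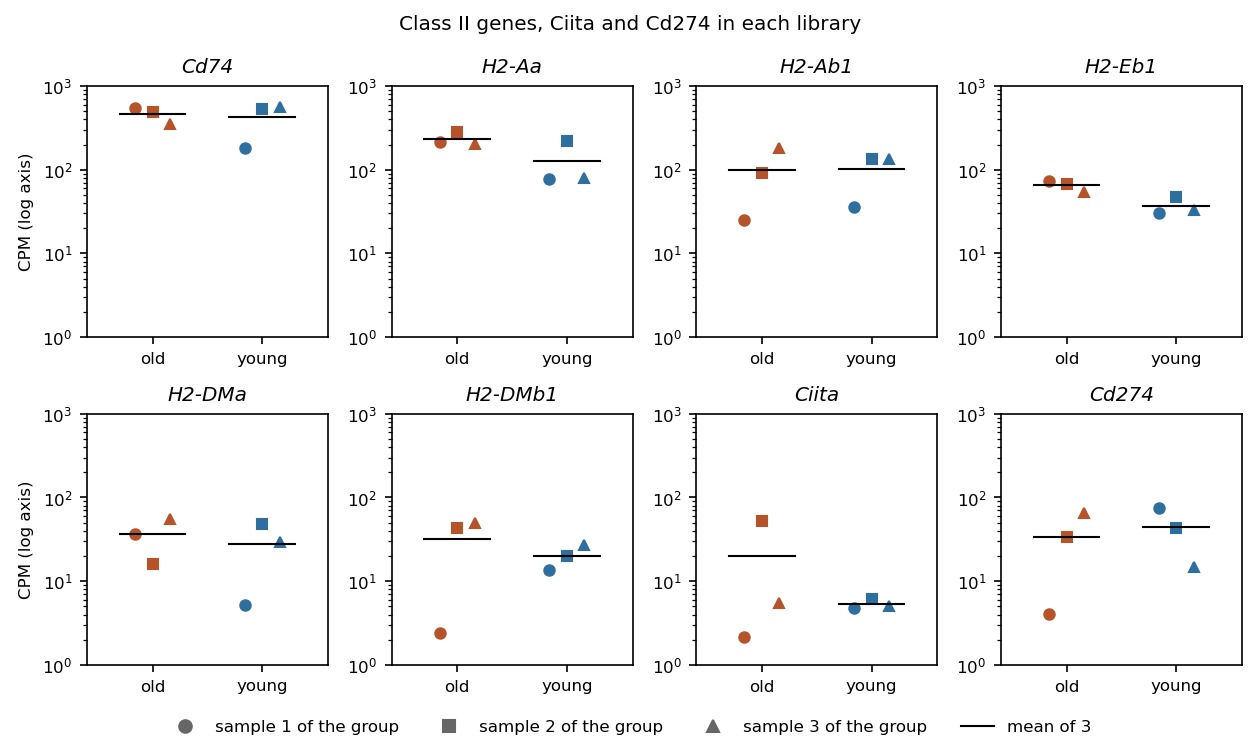
Level of each gene in CPM on a log axis, in 3 old libraries (left, orange) and 3 young libraries (right, blue), with the mean of 3 as a line and a marker shape for each sample number. H2-Eb1 is the only gene whose old points, from 53.7 to 73.9 CPM, all lie above its young points, from 30.4 to 47.6 CPM.

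Cd74 encodes the invariant chain, which chaperones class II chains and also serves as a receptor for the cytokine MIF. It was the most abundant of the 8 genes and stood at rank 205 of 15394 by mean level. It had 551, 488 and 353 CPM in the old samples and 184, 535 and 569 CPM in the young samples. Only young sample 1 was low, and the other 5 libraries lay within a narrow range in which the ages overlapped. The means were 464 ± 101 CPM in old and 429 ± 213 CPM in young cells (SD, n = 3 each). The log2 fold change was 0.11 (SE 0.40, 95% interval -0.80 to 1.02; edgeR adjusted p = 0.988). Without young sample 1 it was -0.25.

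The chains of the I-A molecule differed from each other. H2-Aa encodes its alpha chain and had 214, 284 and 205 CPM in the old samples and 77.3, 221 and 79.5 CPM in the young samples. The old samples were alike, while young sample 2 reached the old level and the other two young samples were low. The means were 234 ± 43.3 CPM in old and 126 ± 82.5 CPM in young cells, a ratio of 1.86. The log2 fold change was 0.89 (SE 0.44, 95% interval -0.11 to 1.89; edgeR unadjusted p = 0.0741, adjusted p = 0.891). H2-Aa stayed positive in all 14 alternatives, from 0.63 without young sample 1 to 1.57 without young sample 2, and passed in 0 of them. H2-Ab1 encodes the beta chain that pairs with it and had 24.99, 91.5 and 182 CPM in the old samples and 35.6, 136 and 134 CPM in the young samples. The old samples spread on both sides of the young range. Its log2 fold change was -0.037 (SE 0.72, 95% interval -1.67 to 1.59; edgeR adjusted p = 1.000), and ran from -0.81 without old sample 3 to 0.42 without old sample 1.

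H2-Eb1 encodes the beta chain of the I-E molecule. C57BL/6 mice are known to lack a working alpha chain gene for I-E, so this transcript is not expected to yield an I-E protein at the surface. H2-Eb1 had 73.9, 67.2 and 53.7 CPM in the old samples and 30.4, 47.6 and 32.9 CPM in the young samples, and the groups did not overlap. The means were 64.9 ± 10.3 CPM in old and 37.0 ± 9.32 CPM in young cells, a ratio of 1.76. The log2 fold change was 0.81 (SE 0.45, 95% interval -0.20 to 1.82; edgeR unadjusted p = 0.102, adjusted p = 0.891). DESeq2 gave an unadjusted p = 0.0496 and an adjusted p = 0.535. The fold change was positive in all 14 alternatives, from 0.67 with library size as the only scaling to 1.03 without young sample 2. H2-Eb1 was also the steadiest of the 8 genes for its level, since its biological coefficient of variation of 45.9% was above that of 13.3% of the 2626 genes within 1.5-fold of its mean. The coefficients of the other 7 genes were above those of 69.6% to 96.4% of genes at their own levels.

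The DM subunits exchange the invariant chain fragment for a peptide. H2-DMa, the alpha subunit, had 36.7, 15.8 and 55.9 CPM in the old samples and 5.15, 48.1 and 29.1 CPM in the young samples. H2-DMb1, a beta subunit, had 2.39, 43.5 and 49.99 CPM in the old samples and 13.5, 19.8 and 26.9 CPM in the young samples. Old sample 1 was low in H2-DMb1, with 32 counts, but not in H2-DMa, with 490 counts. The log2 fold changes were 0.40 for H2-DMa (SE 0.85, edgeR adjusted p = 0.977) and 0.67 for H2-DMb1 (SE 0.97, edgeR adjusted p = 0.965). Their 95% intervals, from -1.53 to 2.33 and from -1.54 to 2.88, span large changes in either direction. Without old sample 1 the value for H2-DMb1 was 1.22, and without young sample 1 the value for H2-DMa was -0.093. H2-DMb1 is uncertain, because 31.4% of the 31-base words of its annotated transcripts also occur in other genes, mainly its copy H2-DMb2. With the counts of both copies summed, the log2 fold change was 0.67. Of the 31-base words of H2-DMa, 9.23% also occur in Brd2, so its counts carry some of this uncertainty.

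Ciita, the transactivator that sets class II transcription, was the least abundant of the 8 genes. It had 2.17, 53.0 and 5.52 CPM in the old samples and 4.78, 6.20 and 5.09 CPM in the young samples. Old sample 2 alone stood high, with 729 counts against 29 to 122 counts in the other 5 libraries. The log2 fold change of 1.92 (SE 1.22, 95% interval -0.86 to 4.69; edgeR adjusted p = 0.913) rested on that sample and was -0.48 without it. Old sample 2 had the highest H2-Aa, at 284 CPM. Its H2-Eb1, at 67.2 CPM, was below only old sample 1, and its H2-DMb1, at 43.5 CPM, below only old sample 3. Its Cd74, at 488 CPM, was below old sample 1 and young samples 2 and 3. It had 91.5 CPM of H2-Ab1 and 15.8 CPM of H2-DMa, below 3 of the other libraries for H2-Ab1 and below 4 for H2-DMa. Part of the gene Dexi lies on the opposite strand of Ciita, and since no source used here gives the strand setting of the counting, reads of the overlap cannot be told apart.

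Cd274 encodes PD-L1, the ligand of the T cell receptor PD-1. It had 4.04, 33.7 and 64.6 CPM in the old samples and 75.6, 42.6 and 14.7 CPM in the young samples, a span of 18.7-fold between the lowest and the highest library. Both ages held a high, a middle and a low library. The means were 34.1 ± 30.3 CPM in old and 44.3 ± 30.5 CPM in young cells (SD, n = 3 each). The log2 fold change was -0.38 (SE 0.94, 95% interval -2.52 to 1.77; edgeR adjusted p = 0.979), which was 0.26 without young sample 1 and -1.23 without old sample 3. Cd274 was highest in young sample 1, the library that was lowest in Cd74, H2-Aa, H2-Eb1 and H2-DMa. An annotated antisense gene overlaps Cd274 and shares words with it, so its counts carry the same uncertainty as those of Ciita.

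**Figure D2:**
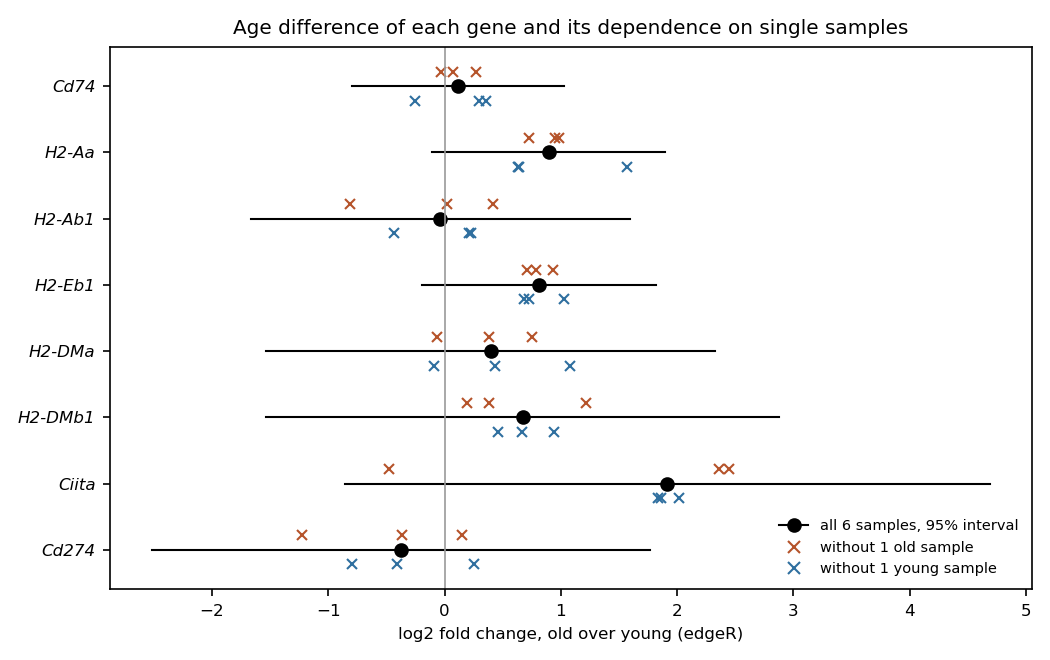
Log2 fold change of each gene, old over young, from edgeR (black points with 95% intervals) and after leaving out 1 old (orange crosses) or 1 young sample (blue crosses). Every interval includes 0, and the crosses stay on 1 side of 0 for H2-Aa, H2-Eb1 and H2-DMb1.

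Levels of different genes were set side by side per kilobase of merged annotated exons, in CPM per kilobase. Cd74 averaged 276 in old and 256 in young cells, H2-Aa 61.6 and 33.2, H2-Ab1 38.7 and 39.7, and H2-Eb1 33.4 and 19.0. H2-DMb1 averaged 19.0 in old and 11.9 in young cells, H2-DMa 10.5 and 7.96, Cd274 9.42 and 12.2, and Ciita 2.12 and 0.561. Cd74 stood above every chain gene in every library. H2-Aa stood above H2-Eb1, H2-DMa and H2-DMb1, and H2-Eb1 above H2-DMa, in every library. H2-Aa and H2-Ab1 changed order between libraries, as did Cd274 and the DM genes. The transcripts in use are not known, so the distance between 2 genes depends on the exon length taken from the annotation, while the change of a ratio between libraries does not.

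The mix of class II chains varied between libraries. Cd74 made up 73.9%, 62.4% and 51.5% of the summed per-kilobase level of the 6 class II genes in the old samples and 64.8%, 66.4% and 74.7% in the young samples. H2-Ab1 made up 2.19%, 7.64% and 17.3% in the old samples and 8.22%, 11.0% and 11.5% in the young samples. The ratio of H2-Aa to H2-Ab1, the partners of I-A, was 5.79, 2.10 and 0.762 in the old samples and 1.47, 1.10 and 0.401 in the young samples. This ratio overlapped between the ages, with means of 2.88 ± 2.60 in old and 0.989 ± 0.542 in young cells (SD, n = 3 each). The ratio of H2-DMa to H2-DMb1 was 7.47, 0.177 and 0.545 in the old samples and 0.186, 1.19 and 0.527 in the young samples. The partners of a heterodimer did not keep 1 ratio from library to library. H2-Aa and H2-Eb1 kept closest, with a ratio of 1.48, 2.16 and 1.95 in the old samples and 1.30, 2.38 and 1.24 in the young samples.

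**Figure D3:**
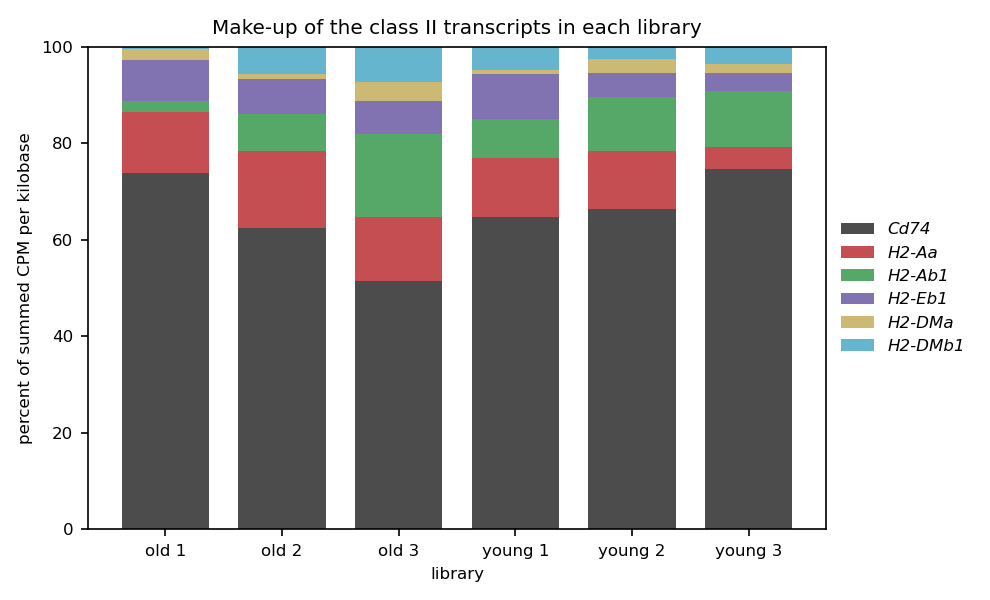
Share of each class II gene in the summed CPM per kilobase of exon, in percent, for the 3 old libraries (left) and the 3 young libraries (right). Cd74 makes up 51.5% to 74.7%, and H2-Ab1 makes up 2.19% in old sample 1 and 17.3% in old sample 3.

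As a description over the 6 libraries, Pearson's r of log2 CPM between H2-Aa and H2-Eb1 was 0.91, while it was 0.15 between H2-Aa and H2-Ab1 and 0.48 between H2-Aa and Cd74. For Cd274 it was -0.65 with Cd74 and 0.72 with H2-DMb1. Ciita had r = 0.65 with H2-DMb1, 0.41 with H2-Aa, 0.37 with Cd274 and 0.35 with H2-Ab1. It had 0.23 with H2-Eb1, 0.09 with Cd74 and -0.23 with H2-DMa. Among 10656 named genes of at least 5 CPM, the closest to Cd74 were Tmcc2 (0.99), Stard3 (0.99), Plbd1 (0.99), Sfxn2 (0.99) and Dhdh (0.98). Those closest to H2-Aa were Zbtb21, C3, Cep295, Ckb and Cnot2, with r of 0.98 to 0.99. Those closest to Ciita were Cdc42se1, Zxdb, Arf6, Homer2 and Klc2, with r of 0.97 to 0.99, and those closest to Cd274 were Adarb1, Bbs2, Ube2z, Usp5 and Acvr1b, with r of 0.99 to 1.00. With 6 points and this many genes searched, values of this size carry no more than a likeness of pattern.

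Other genes of the class II region and of its control were listed beside the members. Of 5 other class II region genes, 4 were in the table, and all were low. H2-DMb2, the copy of H2-DMb1, had 3.29, 2.83 and 1.27 CPM in the old samples and 2.23, 1.17 and 1.13 CPM in the young samples, and H2-Oa, the alpha chain of the DM inhibitor DO, had 1.05, 0.0726 and 0.0488 CPM in the old samples and 0, 2.39 and 4.05 CPM in the young samples. H2-Ob, the DO beta chain, had 0.224, 4.94 and 8.45 CPM in the old samples and 0, 11.3 and 5.99 CPM in the young samples, and was named after its values were seen. DO is known from B cells and some dendritic cells, and both of its genes were listed at 0 in young sample 1.

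Of the 13 factors that bind the X and Y boxes or work with Ciita, 8 had a positive log2 fold change, the median was 0.11, and 0 of 13 had an edgeR unadjusted p under 0.05, against 5.56% of all tested genes. Crebbp, an acetyltransferase recruited by Ciita, averaged 230 ± 40.6 CPM in old and 318 ± 96.9 CPM in young cells, and Ncoa1, a coactivator, 34.5 ± 19.1 and 65.6 ± 33.6 CPM. Rfx5, the DNA-binding subunit of the RFX complex, was named after its values were seen. It had 45.7, 13.9 and 28.0 CPM in the old samples and 7.57, 18.5 and 18.6 CPM in the young samples, and the groups overlapped.

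Of 14 genes on the path from interferon-gamma to Ciita, 13 were tested, with a median of -0.020. Irf1, a transcription factor that acts on the endothelial promoter of Ciita, was 1 of 13 at an unadjusted p under 0.05, against 5.56% of all tested genes (edgeR unadjusted p = 0.0394, adjusted p = 0.888). It had 249, 18.5 and 67.4 CPM in the old samples and 25.2, 28.1 and 33.4 CPM in the young samples. Old sample 1 held the highest Irf1 and the lowest Ciita, and old sample 2 held the lowest Irf1 and the highest Ciita. Socs3, a feedback inhibitor of cytokine signalling, averaged 67.8 ± 40.8 CPM in old and 33.2 ± 19.4 CPM in young cells.

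The genes that cut the invariant chain and turn class II molecules over had 11 of 14 members negative and a median of -0.31. Over all tested genes 51.0% were positive. At an edgeR unadjusted p under 0.05 there was 1 of the 14, against 5.56% of all tested genes. All old values lay below all young values for 1 of the 14, against 6.44%. Ctsd, the lysosomal protease cathepsin D, had 745, 882 and 700 CPM in the old samples and 777, 1316 and 1658 CPM in the young samples (edgeR unadjusted p = 0.0329, adjusted p = 0.888). March8, a ubiquitin ligase that removes class II from the surface, had 4.26, 2.91 and 6.93 CPM in the old samples and 9.25, 17.8 and 23.8 CPM in the young samples, with no overlap (edgeR unadjusted p = 0.0743, adjusted p = 0.891). Ctss, the cathepsin that makes the last cut of the invariant chain, was named after its values were seen. It had 67.1, 149 and 72.8 CPM in the old samples and 11.0, 419 and 452 CPM in the young samples, so young sample 1 was again the lowest library.

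Other checkpoint and costimulatory ligands had 16 of 23 genes tested, with 9 positive and a median of 0.073. Cd200, a ligand that restrains myeloid cells, had 166, 217 and 221 CPM in the old samples and 85.8, 109 and 118 CPM in the young samples, without overlap. Nectin2, a ligand of the T cell receptors TIGIT and CD226, had 113, 102 and 151 CPM in the old samples and 72.9, 55.05 and 56.3 CPM in the young samples, also without overlap. Their edgeR p-values were 0.00952 and 0.0195, with adjusted p = 0.778 and 0.863, so neither passed. These 2 and Vsir, a ligand named VISTA that averaged 41.5 ± 16.6 CPM in old and 101 ± 51.5 CPM in young cells, were the 3 of 16 with an unadjusted p under 0.05, against 5.56% of all tested genes. Vsir was named after its values were seen. Of 7 tested genes that act on the PD-L1 protein, 0 had an unadjusted p under 0.05 in edgeR, against the same 5.56%: Stub1, a ubiquitin ligase, averaged 43.9 ± 18.1 CPM in old and 24.3 ± 6.42 CPM in young cells. Cmtm6, which keeps PD-L1 at the membrane, averaged 113 ± 56.5 and 153 ± 30.6 CPM.

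T cell receptors for class II and checkpoint ligands were also listed, although the sort should leave out T cells. Lag3, which binds class II and is also known from microglia in the mouse brain, had 3.29, 5.52 and 2.29 CPM in the old samples and 4.90, 71.5 and 48.7 CPM in the young samples. Young samples 2 and 3 were high and young sample 1 was not. DESeq2 called Lag3 as the only gene of all these lists, where it called 0.882% of all genes. For Lag3 edgeR gave unadjusted p = 0.00862 and adjusted p = 0.761. Havcr2, a checkpoint receptor also found on microglia, had 20.1, 5.30 and 1.27 CPM in the old samples and 1.18, 67.2 and 57.7 CPM in the young samples, the same young libraries being high.

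Markers of leukocytes that carry class II were present in the same libraries. In bulk samples, fewer cells of a type and less RNA per cell cannot be told apart. The 10 pan-leukocyte markers summed to 350 to 672 CPM in old and 254 to 1344 CPM in young libraries, and 1 of them was listed at 0, in young sample 1. Of these, 9 of 10 had a negative log2 fold change, with a median of -0.84, where 51.0% of all tested genes were positive. An edgeR unadjusted p under 0.05 was found for 0 of the 10, against 5.56% of all tested genes. The most abundant of the 10 were Laptm5 and Arhgdib. Laptm5, a lysosomal membrane protein of blood cells, had 59.4, 304 and 37.9 CPM in the old samples and 63.4, 635 and 536 CPM in the young samples. The level of Arhgdib averaged 116 ± 6.13 CPM in old and 152 ± 27.5 CPM in young cells. The 17 macrophage and microglia markers summed to 874 to 2111 CPM in old and 732 to 5200 CPM in young libraries, with 16 of 17 negative and a median of -1.71. At an edgeR unadjusted p under 0.05, 1 of the 17 was lower and 1 higher in old cells, against 5.56% of all tested genes. All old values lay below all young values for 1 of the 17, against 6.44%. Csf1r, the receptor for macrophage growth factor, had the highest mean level of the 17 over the 6 libraries. It had 46.6, 695 and 141 CPM in the old samples and 77.8, 1006 and 1798 CPM in the young samples. Mrc1, a mannose receptor that lymphatic endothelium also expresses, came next and was the 1 positive marker of the 17. It had 679, 414 and 739 CPM in the old samples and 401, 452 and 362 CPM in the young samples, so it stood above Csf1r in old samples 1 and 3 and in young sample 1. Both sums were lowest in young sample 1, as the class II sum was, and their part in the class II values was not tested.

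The class II sum was 346 CPM in young sample 1, where Ptprc stood at 0.993 CPM, from only 16 counts. The sum there was 348 times the Ptprc level, a ratio that rests on those few counts. That ratio was 29.1, 32.2 and 14.3 in the old samples and 17.5 and 11.98 in the other two young samples. Against the summed pan-leukocyte markers, young sample 1 did not stand out in this way. The class II sum was 1.36 times that marker sum there, and 2.58, 1.47 and 2.44 times in the old samples. The other young samples were lower, at 0.749 and 0.654 times. Against the macrophage and microglia markers it was 0.472 times in young sample 1, and 1.03, 0.469 and 0.782 times in the old samples. The 13 dendritic cell markers summed to 189 to 325 CPM in old and 286 to 402 CPM in young libraries. The most abundant by mean over the 6 libraries were Fscn1 and Zbtb46, which endothelial or stromal cells can also express. Siglech, named after its values were seen, stood above both in young samples 2 and 3. Its level was 7.86, 48.3 and 2.49 CPM in the old samples and 2.11, 190 and 159 CPM in the young samples. The defining marker Itgax, which encodes CD11c, had 0, 1.09 and 0 CPM in the old samples and 0, 2.54 and 1.67 CPM in the young samples. Irf4, a factor of dendritic cells and plasma cells, was named after its values were seen. It had 6.66, 18.2 and 47.2 CPM in the old samples and 0.0621, 3.25 and 1.13 CPM in the young samples (edgeR unadjusted p = 0.0206, adjusted p = 0.863).

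The 8 B cell markers in the table summed to 134 to 1248 CPM in old and 60.3 to 988 CPM in young libraries. Of these 8, 4 were tested, and all 4 had a positive log2 fold change, with a median of 1.25. An edgeR unadjusted p under 0.05 was found for 0 of these 4, against 5.56% of all tested genes. Ighm, the immunoglobulin mu chain, was most of the sum in every library but old sample 1. It had 28.1, 235 and 1235 CPM in the old samples and 48.6, 979 and 77.7 CPM in the young samples. Cd79a, a B cell receptor subunit, had 11.7, 33.5 and 0.879 CPM in the old samples and 5.96, 2.18 and 6.98 CPM in the young samples. Ms4a1, which encodes CD20, had 3.97, 0 and 0 CPM in the old samples and 0.807, 0.102 and 0.270 CPM in the young samples. The T cell, NK cell and innate lymphoid list was led by Thy1, which stromal cells also express, followed by Cd3d, and had 4 of 7 tested genes positive with a median of 0.41. Of the 10 lymphatic endothelial markers, 10 were positive, with a median of 0.49 and a sum of 16787 to 20397 CPM in old and 10866 to 13433 CPM in young libraries. At an edgeR unadjusted p under 0.05 there were 6 of the 10, against 5.56% of all tested genes, and 7 of the 10 had all old values above all young values, against 5.56%. After adjustment edgeR and DESeq2 called 0 of the 10, and limma-voom called 1, Ccl21a, with adjusted p = 0.0456. Ccl21a, a chemokine that draws cells bearing CCR7, had 6102, 4851 and 4878 CPM in the old samples and 3035, 2359 and 2790 CPM in the young samples. It has near-identical copies, so its counts are uncertain. Mmrn1, a matrix protein, had 3702, 2885 and 3277 CPM in the old samples and 2306, 1780 and 1990 CPM in the young samples. The part of these markers in the class II values was not tested.

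Pecam1, which encodes the CD31 of the sort, averaged 611 ± 107 CPM in old and 374 ± 46.5 CPM in young cells, and Pdpn, which encodes podoplanin, 93.8 ± 43.4 and 72.2 ± 9.22 CPM.

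**Figure D4:**
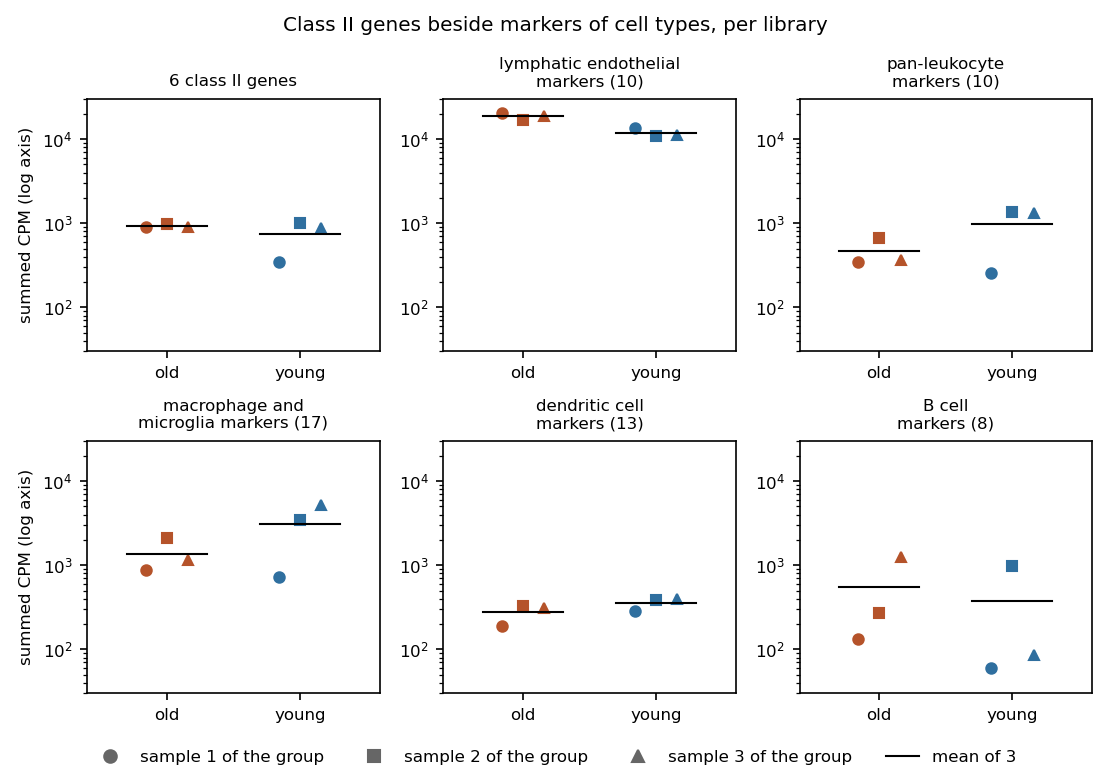
Summed CPM, on a log axis, of the 6 class II genes and of 5 marker lists in the 3 old libraries (left, orange) and the 3 young libraries (right, blue), with the mean of 3 as a line. Young sample 1 is the lowest library for the class II genes at 346 CPM and for the pan-leukocyte markers at 254 CPM, and the highest young library for the lymphatic endothelial markers at 13433 CPM.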

How the data were processed

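RNA sequencing of sorted meningeal lymphatic endothelial cells gave 6 samples, 3 per age. The authors deposited estimated counts per gene, already whole numbers; FastQC, Salmon and mm10 are named, without versions, in the submitters' processing notes. No source used here gives the annotation, the strand setting or how transcripts were summed to genes. Of 22964 Ensembl identifiers, 22738 had a symbol in GENCODE M21 (GRCm38), which also gave positions and exon lengths. The main test was the quasi-likelihood test of edgeR 4.0.16 (R 4.3.3), robust and two-sided, on age alone, after filterByExpr (minimum count 10, minimum total 15, leaving 15394 genes) and TMM scaling, with Benjamini-Hochberg adjustment at 0.05. Intervals are the fold change ± the t quantile times its standard error. CPM values use TMM-scaled library sizes, and log2 CPM a prior count of 2. Alternatives were DESeq2 1.42.0, limma-voom (limma 3.58.1), other scalings and filters, summed copies, a replicate block and each sample left out. The tests were checked on simulated counts. The 8 genes and the lists were chosen with earlier results of these data known. All 8 are named. From every other list, the 2 genes with the smallest edgeR p are named, or for cell type lists the 2 most abundant beside the genes of the sort, and other genes are said to be named after their values were seen or are defining markers. A gene of the lists is not reported here.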

Additional observations from a re-analysis of the deposited data

How the results depend on the processing

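None of the 8 genes passed an adjusted p of 0.05 under any of the 14 alternatives, and the count of called genes among the 8 was 0 in each. Over all genes edgeR called 0, against 130 by DESeq2, 3 by limma-voom, and 0 to 1 with single samples left out. H2-Aa and H2-Eb1 kept a positive fold change in every alternative. Cd74 reversed with library size only (-0.042) and ran from -0.25 to 0.36 with single samples left out. H2-DMb1 reversed in limma-voom (-0.022) and with the replicate block (-0.017), and with single samples left out ran from 0.19 to 1.22. In the same way H2-Ab1 ran from -0.81 to 0.42, H2-DMa from -0.093 to 1.08, Ciita from -0.48 to 2.44 and Cd274 from -1.23 to 0.26, each changing sign. Ciita had 0.65 in limma-voom. The causes were not tested. Whether equal sample numbers pair the samples was not settled. Deviations of same-numbered samples correlated at 0.08, 0.05 and -0.01, and those of other pairs at -0.09 to 0.06. With spread between libraries this large, the check cannot exclude pairs. With the replicate block edgeR called 0 genes, as it did without the block. All 8 genes had at least 29 counts in each library, while the common biological coefficient of variation between samples of an age was 90.1%.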

Other observations

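The level of class II transcripts relative to leukocyte markers was set out after the values had been seen, and has no test. The summed CPM of the 6 class II genes was 2.58, 1.47 and 2.44 times that of the 10 pan-leukocyte markers in the old samples and 1.36, 0.749 and 0.654 times in the young samples, so the groups did not overlap. Arhgdib weighs on this marker sum, with 123 of the 254 CPM in young sample 1 and 113 of the 672 CPM in old sample 2. The class II sum was 346 CPM in young sample 1 and 990 CPM in old sample 2. With Arhgdib left out of the marker sum, the ratio of young sample 1 would lie above that of old sample 2. The lack of overlap between the groups therefore rests on Arhgdib. Relative to the 17 macrophage and microglia markers the class II sum was 1.03, 0.469 and 0.782 in the old samples and 0.472, 0.291 and 0.168 in the young samples, where old sample 2 lay just below young sample 1. Relative to the 10 lymphatic endothelial markers it was 0.0443, 0.0590 and 0.0479 in the old samples and 0.0257, 0.0927 and 0.0788 in the young samples, where the old samples lay between the young ones.

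Cd79b, a B cell receptor subunit, did not pass the filter on low counts, since 370 of its counts lay in old sample 1 and at most 2 in any other library. It had 27.7, 0.0726 and 0.0976 CPM in the old samples and 0, 0 and 0.0450 CPM in the young samples. Old sample 1, the library with that level, was not the library with the highest Ighm, which was old sample 3 at 1235 CPM. Of the other B cell markers, Pax5 had 48.6 CPM in old sample 1 and 0 CPM elsewhere. Cd22, at 7.48 CPM, and Ms4a1, at 3.97 CPM, were also highest in old sample 1. Cd79a was highest in old sample 2, Fcrla in old sample 3 and Blk in young sample 1. Cd79b, Pax5, Cd22, Fcrla, Blk and Nlrc5 were named after their values were seen. Nlrc5, the transactivator of class I genes related to Ciita, had 37.9, 33.0 and 144 CPM in the old samples and 10.7, 40.3 and 0 CPM in the young samples.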
